A study of Homo sapiens with 6 samples.

Results

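QPRT, the enzyme that turns quinolinate into nicotinic acid mononucleotide, gave a lower signal on all 3 arrays labelled CCN5 than on all 3 labelled vector, and it is described here with 9 other genes of NAD synthesis and use, 10 genes among 19090 and 14 probes among 28264. The members were found by annotated symbol: QPRT, NAMPT, NAPRT, NMNAT1, NMNAT2, NMNAT3, NADSYN1, NADK, KYNU and NNMT. QPRT was chosen by its difference between these same arrays, which was among those of smallest p, and the other members were listed around it. The differences of all 14 probes are therefore given as a description, with no test. NMNAT1, NMNAT3, NADK and KYNU had 2 probes each, the other members 1 each.

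The samples are 6 single-colour Cy3 arrays. The cells, labelled Hep3B, a human line established from a hepatocellular carcinoma, were grown in DMEM with 10% FBS. By their labels, 3 arrays hold RNA of cells transfected with a vector, which the titles name GFP, and 3 hold RNA of cells transfected with CCN5, a secreted matricellular protein also called WISP2. The comparison asks which transcripts differ between these labels. The series holds no array of untransfected cells, so a lower signal with the CCN5 label cannot be told apart from a higher signal with the vector label. Whether the 3 replicates are separate cultures is not stated in the labels, and the spread between them may be technical.

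Checks of the labels went against them, and directions below rest on the labels alone. The CCN5 probe read 851 ± 25.7 (SD, n = 3) on the arrays labelled vector and 655 ± 30.7 (SD, n = 3) on those labelled CCN5 (exact two-sided permutation p = 0.1, the smallest that 3 arrays against 3 allow), and the probe's place in the transcript is not known here. Of 15 hepatocyte and hepatoma markers 13 were measured, and 12 of them were dimmer than the median probe, with albumin (ALB) at percentile 12.2 and alpha-fetoprotein (AFP) at 26.7. Their summed intensity was 2970 to 3441 on the arrays labelled vector and 2861 to 3632 on those labelled CCN5. Of 9 squamous epithelial markers 6 were measured and 5 lay above the 75th percentile. The basal keratins KRT5 and KRT14 stood at percentiles 98.4 and 95.4. Summed intensities were 112859 to 128284 with the vector label and 121201 to 131251 with the CCN5 label. These sums hide opposite shifts, with 4 of the 6 lower and 2 higher under the CCN5 label. KRT14 read 25142 ± 2399 (SD, n = 3) with the vector label and 16786 ± 266 (SD, n = 3) with the CCN5 label, without overlap. KRT5 read 42789 ± 5546 (SD, n = 3) and 58812 ± 11100 (SD, n = 3), with overlap. Of 8 fibroblast markers 6 were dimmer than the median probe, with sums of 2573 to 5303 and 4034 to 5034. On the normalized scale 6 were lower with the CCN5 label and 2 higher. Only LUM was without overlap, at a log2 difference of -0.55, while its dimmer probe gave 0.68 with overlap. COL1A1 read 511 on vector replicate 3, against 2965 and 2983 on the other arrays labelled vector. No marker of these lists, by its brightest probe, was at or under 0 on any array. Leukocyte markers were dim, and on the normalized scale 7 of 7 were lower with the CCN5 label. Only 3 of them, CD14, CSF1R and TYROBP, were without overlap, and PTPRC differed by -0.07. Deposited sums were 2753 to 3191 against 2111 to 2555. Deposited means were slightly higher with the CCN5 label for PTPRC (63.8 and 69.6) and LYZ (24.9 and 25.3), and lower for the other markers. The part of leukocyte markers in any result was not tested. Vector replicate 1 stood apart in the dim range, with 1330 intensities below 0 against 0 to 12 on the other arrays.

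NAD is the main electron carrier of metabolism and a substrate of sirtuins and poly(ADP-ribose) polymerases. Cells make it from tryptophan through the kynurenine pathway, which ends at QPRT, from nicotinic acid through NAPRT in the Preiss-Handler pathway, and from nicotinamide through NAMPT, the rate-limiting salvage enzyme of most tissues. The mononucleotides from all of these routes are adenylated by the NMNAT enzymes. Liver is the tissue best known for making NAD from tryptophan.

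The promoter windows of QPRT, KYNU and NAMPT are shown because QPRT carries the largest difference among the members, KYNU works upstream of it in the same pathway, and NAMPT opens the alternative salvage route. Each window runs from 250 bases before to 50 bases after the RefSeq gene start on GRCh38.p14, 5′ to 3′ on the gene's strand, and capitals mark CG dinucleotides. The windows are chr16:29678930-29679229 on the plus strand for QPRT, chr2:142877414-142877713 on the plus strand for KYNU and chr7:106284934-106285233 on the minus strand for NAMPT.
QPRT: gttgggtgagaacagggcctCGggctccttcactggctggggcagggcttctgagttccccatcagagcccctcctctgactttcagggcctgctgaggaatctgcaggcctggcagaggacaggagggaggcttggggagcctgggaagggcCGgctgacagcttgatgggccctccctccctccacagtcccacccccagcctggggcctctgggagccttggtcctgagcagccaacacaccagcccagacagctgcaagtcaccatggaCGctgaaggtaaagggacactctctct
KYNU: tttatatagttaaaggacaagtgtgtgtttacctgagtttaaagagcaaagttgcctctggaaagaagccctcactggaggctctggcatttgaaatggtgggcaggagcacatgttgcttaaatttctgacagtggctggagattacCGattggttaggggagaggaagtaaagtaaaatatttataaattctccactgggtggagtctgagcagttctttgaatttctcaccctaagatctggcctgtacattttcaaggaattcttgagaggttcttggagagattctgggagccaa
NAMPT: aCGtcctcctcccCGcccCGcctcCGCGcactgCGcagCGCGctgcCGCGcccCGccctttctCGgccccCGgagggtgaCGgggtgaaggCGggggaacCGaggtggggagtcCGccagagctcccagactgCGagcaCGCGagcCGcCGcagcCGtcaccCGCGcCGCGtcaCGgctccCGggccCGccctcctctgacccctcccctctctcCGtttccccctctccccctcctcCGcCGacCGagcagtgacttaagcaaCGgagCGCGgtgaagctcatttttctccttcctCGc
The QPRT window was GC-rich but poor in CG, with 64.0% G or C and 3 CG dinucleotides, against a median of 58.7% and 14 over 35116 windows. KYNU had 42.3% and 1, and NAMPT 73.0% and 38. Of the 8 members with a window in the RefSeq table, NADSYN1 held 34 CG dinucleotides, NMNAT1 27, NMNAT2 and NMNAT3 18 each, and NADK 6.

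Short core-promoter motifs were searched on both strands of each window. The GC box GGGCGG was found 3 times in NAMPT, 6 times in NMNAT3, 5 times in NADSYN1 and once each in NMNAT1 and NADK, and 45.0% of all windows hold it. CCAAT occurred once each in KYNU and NMNAT1 (34.6% of all windows), and TATAAA occurred 3 times in KYNU alone, of which the matches 68 bases before the start on the minus strand and 66 before it on the plus strand overlap (11.5% of all windows). CACGTG was in none of the 8 windows (7.26% of all windows). None of the 4 motifs was in the QPRT window, which says only that these letters are absent from it.

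QPRT showed the widest difference of the members. Its deposited intensity was 1318, 1640 and 1678 with the vector label, and 715, 690 and 629 with the CCN5 label, each in the order of replicates 1 to 3, as are all values per array that follow. The highest array labelled CCN5 lay far below the lowest labelled vector, and the arrays labelled vector were the more spread, at 1546 ± 198 (SD, n = 3) against 678 ± 44.0 (SD, n = 3). After quantile normalization, which gives all arrays the same distribution of log2 values, the difference with the CCN5 label minus the vector label was -1.16 (SE 0.11, 95% interval -1.43 to -0.89), so that normalized signal was 2.23-fold higher under the vector label. Without vector replicate 1 it was -1.25. In bulk RNA, fewer cells with QPRT transcript and less of it per cell cannot be told apart. Only 28 of 19090 genes, each by its brightest probe, had a lower difference.

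**Figure D1:**
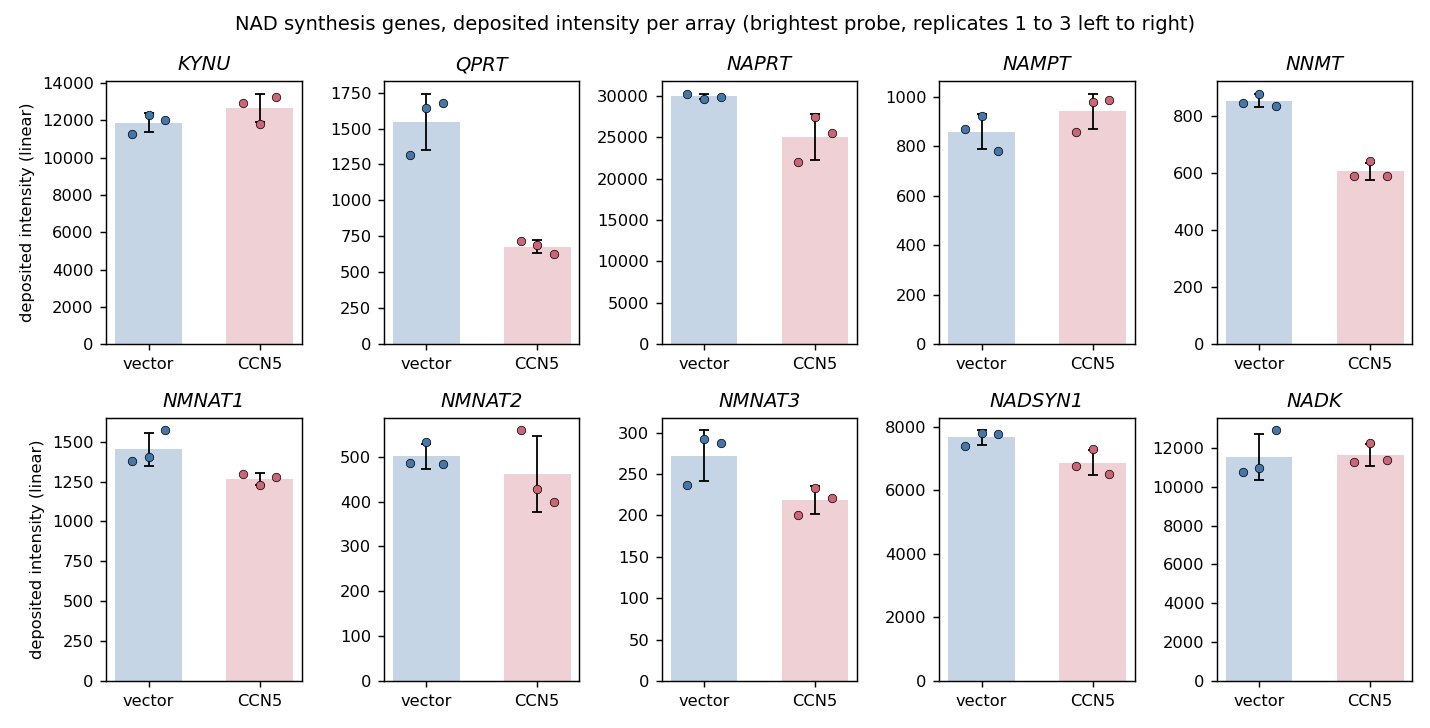
Deposited intensity (linear scale, vertical axis from 0) of the brightest probe of each member on the 3 arrays of each label; points are arrays in replicate order, bars are means and error bars SD (n = 3). QPRT lies at 1318 to 1678 with the vector label and at 629 to 715 with the CCN5 label, NNMT is separated by less, and KYNU, NAMPT, NMNAT2 and NADK overlap.

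KYNU, the kynureninase that cleaves hydroxykynurenine upstream of quinolinate, showed no such gap. Its brighter probe read 11282, 12289 and 12010 with the vector label and 12929, 11807 and 13257 with the CCN5 label. The labels overlapped. The log2 difference was 0.07 (SE 0.10, 95% interval -0.17 to 0.31, and 0.016 to 0.13 without 1 array) for this probe and -0.03 (SE 0.10) for the dimmer probe, whose sign turned under median centring (0.0056) and without vector replicate 2 (0.0018) or CCN5 replicate 3 (0.0095).

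In the Preiss-Handler pathway, arrays labelled CCN5 read below those labelled vector for NAPRT and, by a smaller margin, for NADSYN1. NAPRT, which attaches phosphoribose to nicotinic acid, read 30267, 29657 and 29830 with the vector label and 21975, 27469 and 25497 with the CCN5 label. All arrays labelled CCN5 were below all labelled vector, with CCN5 replicate 2 nearest, and the log2 difference was -0.31 (SE 0.10, 95% interval -0.54 to -0.07). NADSYN1, the synthetase that amidates nicotinic acid adenine dinucleotide to NAD and so completes both this route and the one through QPRT, read 7409, 7813 and 7786 with the vector label and 6782, 7297 and 6526 with the CCN5 label. The labels did not overlap, though vector replicate 1 and CCN5 replicate 2 were close, and the log2 difference was -0.17 (SE 0.09, 95% interval -0.38 to 0.04), an interval that includes 0.

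NAMPT, which joins nicotinamide to phosphoribose in the salvage route, was on the higher side. It read 870, 924 and 784 with the vector label and 861, 980 and 988 with the CCN5 label. CCN5 replicate 1 lay within the range of the arrays labelled vector. The log2 difference was 0.16 (SE 0.14, 95% interval -0.18 to 0.50). It was 0.074 without vector replicate 3, 0.086 without CCN5 replicate 3 and 0.29 without CCN5 replicate 1.

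The adenylating enzymes are 3: NMNAT1 of the nucleus, NMNAT2 of the Golgi and cytosol and NMNAT3 of mitochondria. Their probes gave log2 differences from -0.29 to -0.03. The brighter NMNAT1 probe read 1379, 1402 and 1571 with the vector label and 1296, 1226 and 1276 with the CCN5 label, without overlap. Its log2 difference was -0.16 (SE 0.09), and the dimmer probe, also without overlap, gave -0.29 (SE 0.13), or -0.17 without CCN5 replicate 1. NMNAT2 read 485, 532 and 485 with the vector label and 559, 428 and 400 with the CCN5 label. CCN5 replicate 1 was the highest array and the other CCN5 replicates the lowest, so the labels overlapped, and the log2 difference was -0.08 (SE 0.10), from -0.15 without CCN5 replicate 1 to -0.032 without CCN5 replicate 3. The brighter NMNAT3 probe read 237, 293 and 287 with the vector label and 201, 233 and 221 with the CCN5 label. Its labels did not overlap, though vector replicate 1 and CCN5 replicate 2 were close. The log2 difference of this probe was -0.28 (SE 0.15), or -0.11 without CCN5 replicate 1. The dimmer NMNAT3 probe, at percentile 21.8 of signal, gave -0.03 (SE 0.25) and its sign turned under 5 alternatives.

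NADK, the cytosolic kinase that phosphorylates NAD to NADP, showed no separation on either probe. Its brighter probe read 10763, 10963 and 12910 with the vector label and 11285, 12277 and 11361 with the CCN5 label, a log2 difference of 0.0011 (SE 0.11, 95% interval -0.26 to 0.26) whose sign turned in 3 alternatives, each without 1 array. The dimmer probe gave 0.16 (SE 0.13), or 0.083 without vector replicate 2 and 0.050 without CCN5 replicate 2.

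NNMT, which methylates nicotinamide and so withdraws it from salvage, had the second-widest difference. It read 846, 879 and 837 with the vector label and 591, 642 and 590 with the CCN5 label. The 3 arrays of each label lay close together and well apart from the other label. The log2 difference was -0.46 (SE 0.11, 95% interval -0.72 to -0.19), or 1.37-fold, and 1009 of 19090 genes had a lower one.

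**Figure D2:**
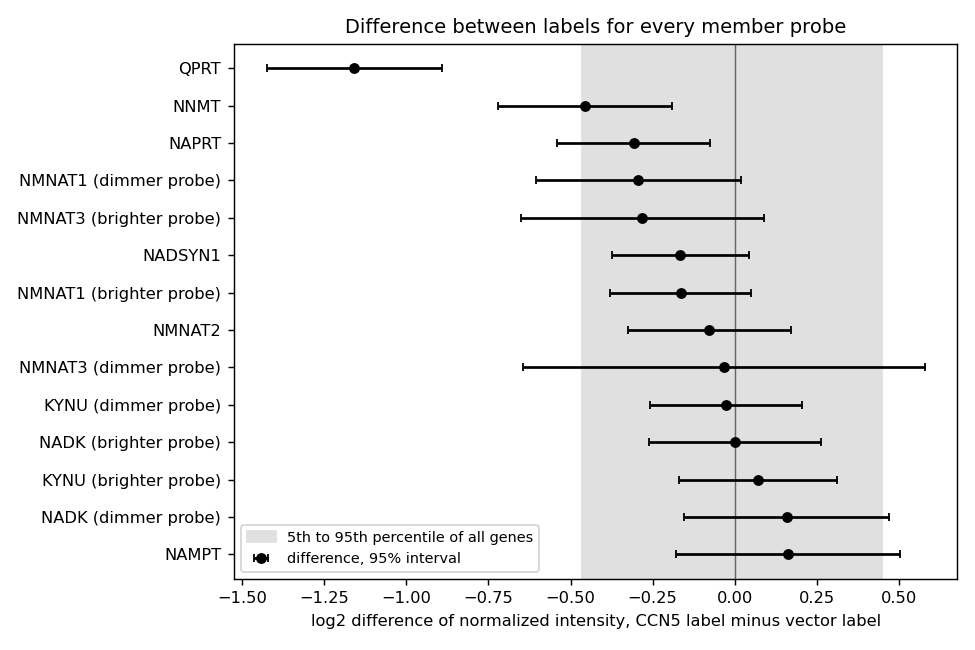
Log2 difference of normalized intensity, CCN5 label minus vector label, for all 14 member probes (points, with 95% intervals); the grey band spans the 5th to 95th percentile of all genes (-0.47 to 0.45). QPRT at -1.16 is the only member probe outside the band, NNMT at -0.46 lies at its edge, and NAMPT at 0.16 is the highest.

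Across the members, 7 of 10 genes by their brightest probe were lower and 3 higher, with a median log2 difference of -0.17, against 9916 of 19090 lower (51.9%) and a median of -0.01 over all genes. On the normalized scale 7 of 14 member probes were lower without overlap between labels, where 14.8% of all probes were, and 0 were higher without overlap, where 11.8% of all probes were. Without vector replicate 1 the first count was 7 again, where 18.9% of all probes were. Under median centring it was 4, where 8.81% of all probes were. The members were chosen with this contrast known, so nothing is read from these shares. With limma's test over all 28264 probes and Benjamini-Hochberg adjustment, 0% passed an adjusted p of 0.05 as higher and 0% as lower. An unadjusted p under 0.05 was reached by 2437 probes on the higher side (8.62%) and 2934 on the lower (10.4%). The members are not singled out in this test, for the same reason.

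The genes whose profile over the 6 arrays was most like that of QPRT were SAT1, LYNX1, AMTN, SLITRK6 and PLAU. Likeness was the root mean square difference between normalized log2 values, each gene centred on its own mean over the 6 arrays, which is small only where shape and size both match. It was 0.0568 for SAT1, which acetylates spermidine and spermine, 0.0923 for LYNX1, a modulator of nicotinic acetylcholine receptors, 0.0974 for AMTN, an enamel protein, 0.115 for the membrane protein gene SLITRK6 and 0.130 for PLAU, the urokinase. The median over 19089 genes was 0.606. On the deposited scale and under median centring 4 of these 5 genes were again among the 5 closest. Since QPRT itself was chosen for its difference, genes close to it necessarily carry a similar one. SAT1 read 26519, 29172 and 29857 with the vector label and 11414, 13010 and 13216 with the CCN5 label. As in QPRT, vector replicate 1 was the lowest array of its label in SAT1. Other probes of these genes did not all share the profile: a dimmer SAT1 probe gave -0.52 (SE 0.19), and LYNX1 gave -0.43 and 0.21 on its dimmer probes, while a dimmer SLITRK6 probe gave -1.63. Among the members NNMT was nearest to QPRT, at 0.379 and rank 700, and NAMPT farthest, at 0.687 and rank 14044.

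**Figure D3:**
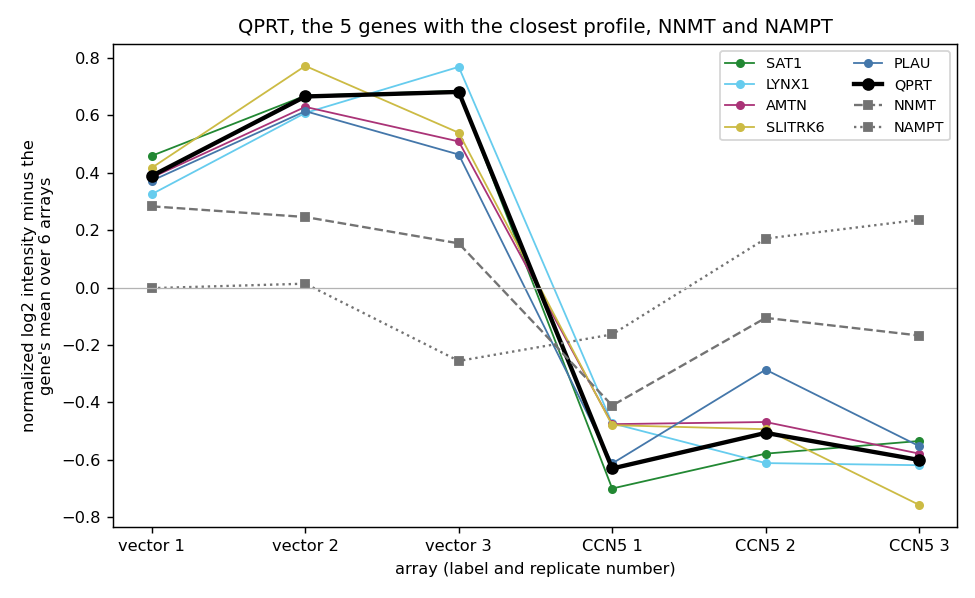
Normalized log2 intensity minus the gene's mean over the 6 arrays (vertical axis) on each array (horizontal axis) for QPRT (black), the 5 genes of closest profile (colours), NNMT (dashed) and NAMPT (dotted). The 5 genes follow QPRT within a root mean square difference of 0.0568 to 0.130, NNMT runs the same way over a smaller range, and NAMPT does not follow it.

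Genes around the members in NAD metabolism were described by 5 lists with 66 genes, all measured. By limma's test with adjustment over all probes 0 of 66 passed, and 6 on the higher and 7 on the lower side had an unadjusted p under 0.05. Of all 19090 genes, each by its brightest probe, 1638 on the higher and 2133 on the lower side did. Of all probes 8.62% and 10.4% did.

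In the kynurenine pathway and its branches 4 of 11 genes were higher and 7 lower, with a median log2 difference of -0.07. KYAT1, a kynurenine aminotransferase that diverts kynurenine to kynurenic acid, read 3866 ± 88.7 (SD, n = 3) with the vector label and 3108 ± 215 (SD, n = 3) with the CCN5 label (log2 difference -0.30, SE 0.09, limma adjusted p = 0.167). IDO2, which opens the tryptophan ring, stood at -0.44 (SE 0.20, limma adjusted p = 0.297), and its dimmer probe at -0.0055 (SE 0.09). The labels of the brighter IDO2 probe overlapped on the normalized scale but not in deposited intensity. On the higher side were GOT2, the mitochondrial aspartate aminotransferase that also acts on kynurenine, at 0.37 (SE 0.12, limma adjusted p = 0.190), and the formamidase AFMID at 0.07. HAAO, which makes the precursor of quinolinate directly upstream of QPRT, read 7865, 6930 and 7808 with the vector label and 7469, 6699 and 6812 with the CCN5 label. The labels overlapped, and the log2 difference was -0.12 (SE 0.10, limma adjusted p = 0.561). HAAO was named after its values were seen.

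Nucleoside salvage, transport and repair of NAD(P) had 7 of 13 genes higher and 6 lower, with a median of 0.10. NT5E, the ecto-nucleotidase CD73 that dephosphorylates extracellular mononucleotides, had the smallest p. It read 1655, 1713 and 1742 with the vector label and 2547, 2472 and 3223 with the CCN5 label. The labels lay well apart, with a log2 difference of 0.69 (SE 0.13, limma adjusted p = 0.108). The nicotinamide riboside kinases ran in opposite directions. NMRK2 read 2597, 2152 and 2295 with the vector label and 2945, 3522 and 3138 with the CCN5 label, a log2 difference of 0.46 (SE 0.12, limma adjusted p = 0.147). NMRK1 read 2348, 2751 and 2360 with the vector label and 2009, 1703 and 1875 with the CCN5 label, a log2 difference of -0.40 (SE 0.11, limma adjusted p = 0.154). Neither kinase overlapped between labels, and neither passed the test. PNP, the purine nucleoside phosphorylase, stood at -0.13 (SE 0.10), with a dimmer probe at -0.18. Some alternatives called genes of this list. With log2(value + 50) NT5E alone of the 66 related genes was called, where 0.283% of all probes were called higher and 0.796% lower. A trended and robust variance gave the same single call, where 0.665% were called higher and 1.19% lower. Without the dimmest 50% of probes NT5E, NMRK2 and NMRK1 were called of 49 related genes left, where 3.06% were called higher and 4.01% lower, and without the dimmest 25% it was 0 of 59, where 0.156% and 0.712% were.

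NAD-consuming enzymes had 9 of 26 genes higher and 17 lower, with a median of -0.12. PARP16 of the endoplasmic reticulum stood at 0.37 (SE 0.14, limma adjusted p = 0.228) and PARP11 at 0.24 (SE 0.11), with a dimmer PARP11 probe at -0.14. SARM1, the NAD hydrolase of injured axons, at percentile 16.1 of signal, stood at -0.29 (SE 0.10, limma adjusted p = 0.213), though its deposited intensities overlapped, and PARP6 at -0.26 (SE 0.10, limma adjusted p = 0.234).

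In nicotinamide clearance and methyl donor supply 2 of 8 genes were higher and 6 lower, with a median of -0.08. AOX1, the aldehyde oxidase that also oxidises methylated nicotinamide, the product of NNMT, stood at -0.34 (SE 0.13, limma adjusted p = 0.229) and CYP2E1, which can oxidise nicotinamide itself, at -0.34 (SE 0.11, limma adjusted p = 0.182). AHCY, which hydrolyses S-adenosylhomocysteine, the other product of NNMT, stood at 0.18 (SE 0.08, limma adjusted p = 0.294). MAT2A, the S-adenosylmethionine synthetase, stood at 0.13 (SE 0.09) on its brighter probe and 0.59 on its dimmer probe.

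Among the genes of phosphoribosyl pyrophosphate supply and the other phosphoribosyltransferases, which share the cosubstrate of QPRT, NAPRT and NAMPT, 6 of 8 were higher and 2 lower, with a median of 0.12. UMPS of pyrimidine synthesis stood at 0.32 (SE 0.17) with overlapping labels. Its CCN5 replicate 1 read 683, against 381 and 451 on the other arrays labelled CCN5. PPAT of purine synthesis stood at 0.19 (SE 0.10), overlapping on the normalized scale. The adenine salvage enzyme APRT stood at -0.18 (SE 0.09) and PRPSAP2 at -0.14 (SE 0.09), both without overlap. Limma adjusted p ran from 0.341 to 0.436 for these 4 genes.

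**Figure D4:**
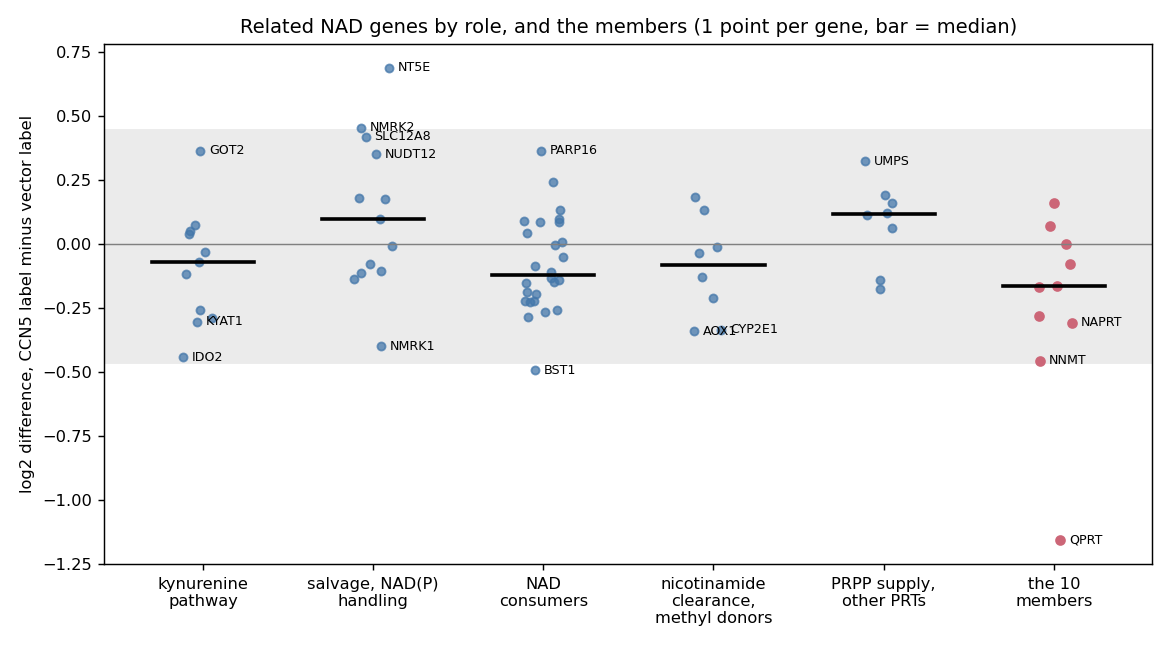
Log2 difference of normalized intensity, CCN5 label minus vector label (vertical axis), for the 66 related genes by role and for the 10 members, 1 point per gene by its brightest probe; black bars are medians and the grey band spans the 5th to 95th percentile of all genes. NT5E at 0.69 and NMRK2 at 0.46 lie above the band, BST1 at -0.49 just below it, and QPRT at -1.16 far below it.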

How the data were processed

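Per the labels' protocols, RNA was primed with T7 oligo(dT), amplified to antisense RNA and coupled to Cy3. The deposited table holds linear intensities with medians of 504 to 600 and upper quartiles of 2486 to 2618. Intensities below 300 rose in steps whose median differed between arrays. It was 0.997, 0.933 and 0.929 on vector replicates 1 to 3 and 1.10, 0.944 and 0.993 on CCN5 replicates 1 to 3. Such steps and the similar quartiles may mean that the arrays were scaled before deposit, which was not tested. The scanner, background correction and normalization steps and the genome build are not stated. No detection calls were used, so signal is described by percentile of mean signal over all probes. The small number of arrays limits the precision.

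Intensities under 1 were set to 1 (5.35% of probes on vector replicate 1, under 0.1% elsewhere), log2-transformed and quantile normalized. Every probe was fitted with limma 3.58.1 in R 4.3.3 (two-sided, no covariates, Benjamini-Hochberg adjustment over 28264 probes). Platform annotation named 25893 probes with 1 gene symbol, 0 with several and left 2371 unnamed here; all 25893 matched the RefSeq gene table. A gene was represented by its brightest probe. The fit was also run on simulated data with independent normal noise and shifts in brighter probes only. That setting holds no array that stands apart as vector replicate 1 does, and nothing here rests on it.

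The members and lists were chosen with earlier results of these data known. Named genes were all members, CCN5, the 2 related genes of smallest p per direction and list, and the 5 genes closest to QPRT. Alternatives covered scaling, offset, dim-probe filters, variance model, array weights, replicate block, probe averaging and leaving out each array. Sequences are from RefSeq, GRCh38.p14, which matched 8 of 10 members. Figures used matplotlib 3.10.9.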

Additional observations from a re-analysis of the deposited data

How the results depend on the processing

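QPRT kept its direction in all 15 alternatives (-1.25 to -1.10, and -1.25 to -1.11 without 1 array), as did CCN5 in 14 (-0.38 to -0.30). The dim-probe filters, variance model and replicate block cannot change either difference, nor can probe averaging change that of QPRT, which has a single probe. QPRT was chosen for this difference, so its range is a description only. CCN5 passed the threshold without the dimmest 50% of probes (-0.34, adjusted p 0.0486), and its adjusted p ran from 0.0486 to 0.449.

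Probes called higher and lower numbered 80 and 225 with log2(value + 50), 33 and 151 without the dimmest 25% of probes, 432 and 567 without the dimmest 50%, 188 and 336 with a trended and robust variance, and 23 and 82 at an adjusted p under 0.1. At an unadjusted p under 0.05 they numbered 2437 and 2934. Without 1 array they numbered 0 and 0 to 1. Related genes called were 1 with log2(value + 50), 3 without the dimmest 50% and 1 with the robust variance: NT5E in each, and NMRK1 and NMRK2 in the second. The filters test fewer probes; other causes were not tested.

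Member probes lower without overlap numbered 4 under median centring (8.81% of all probes). No list median changed sign. Medians that moved by more than the spread between arrays were, for the salvage list, 0.18 on the deposited scale, 0.23 under median centring, 0.14 and 0.046 without the dimmest 25% and 50% and 0.058 with gene means. For NAD consumers they were -0.079 on the deposited scale, -0.034 under median centring, -0.079 without the dimmest 50% and -0.076 with gene means. For the kynurenine list they were -0.022 under median centring and -0.12 without the dimmest 25%, and for the clearance list -0.027 and -0.036. Median centring moved the median of all genes to 0.06. Without 1 array the salvage median was 0.047 to 0.14, that of consumers -0.13 to -0.098 that of clearance -0.14 to -0.051, that of the kynurenine list -0.11 to -0.089 and that of the phosphoribosyl list 0.069 to 0.16. The salvage median was lowest without CCN5 replicate 2, that of clearance lowest without vector replicate 3 and nearest 0 without vector replicate 2, that of the kynurenine list lowest without CCN5 replicate 2, and that of the phosphoribosyl list lowest without CCN5 replicate 3. Leaving out 1 array moved the salvage median beyond the spread for vector replicates 2 (0.062) and 3 (0.14) and CCN5 replicates 1 (0.14) and 2 (0.047). It also moved consumers for CCN5 replicate 3 (-0.098) and clearance for vector replicate 3 (-0.14).

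Same-numbered arrays deviated together at r = -0.08, 0.16 and -0.03. With so few arrays, this cannot decide whether they shared a culture or a batch, and the labels do not state it. With the replicate block 0 probes were called higher and 0 lower, and QPRT stood at -1.16.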
